A study of Arabidopsis thaliana with 4 samples.

Results

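The genes described here make and conjugate auxin: 7 YUC loci (YUC1, YUC2, YUC3, YUC5, YUC6, YUC8 and YUC9) and 3 GH3 loci (GH3.1, GH3.3 and WES1, which is also called GH3.5). They were chosen by locus, and a locus counted as measured where the platform's annotation tied a probe set to it and to no other gene. By this rule 5 of the 10 were measured, among 13333 genes with a probe set of their own and 22746 probe sets tested in all. These were YUC2 (AT4G13260), YUC6 (AT5G25620), GH3.1 (AT2G14960), GH3.3 (AT2G23170) and WES1 (AT4G27260), each with a single probe set. YUC1, YUC3, YUC5, YUC8 and YUC9 are not analysed here.

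RNA came from whole 14-day-old Arabidopsis thaliana seedlings of the Col strain, all carrying the max3 mutation that leaves them unable to make strigolactone. One group had been given 1 µM GR24, a synthetic strigolactone, for 90 min. The other had been given the solvent DMSO as a mock treatment for the same time. Each group had 2 arrays, numbered replicate 1 and replicate 2. The study describes 2 independent experiments, each with its own seedlings, and a number shared by a GR24 and a mock array was taken to mark the same experiment, which the labels do not state outright. No wild type was used here, so GR24 was compared with mock within the mutant alone.

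Indole-3-acetic acid, the main natural auxin, is made chiefly in a short route from tryptophan. Aminotransferases of the TAA1 family form indole-3-pyruvate, and the YUC flavin monooxygenases turn that into the hormone in the rate-limiting step. Some GH3 enzymes join the hormone to amino acids and so lower its active pool, and several GH3 genes are themselves switched on rapidly by auxin. In seedlings YUC1, YUC2, YUC4 and YUC6 are known mainly from the shoot, and YUC3, YUC5, YUC7, YUC8 and YUC9 mainly from the root. The comparison of GR24 with mock asks whether transcript levels of these genes shift within 90 min of adding strigolactone.

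Among the 5 measured genes, YUC2 had the widest GR24 minus mock difference, with lower signal after GR24 on both pairs of arrays. GH3.3 was also lower after GR24 in both pairs, by a smaller amount, and YUC6, GH3.1 and WES1 lay close to their mock values. However, 0 of the 5 passed the test (limma with the replicate number as a block, adjusted p under 0.05 over all probe sets), against 0.303% of all probe sets. At an unadjusted p under 0.05, 1 of the 5 passed (YUC2), against 7.47% of all probe sets. The smallest log2 change that passed in this fit was 0.65 in size, a limit that depends on the variance estimate. With limma's default variance estimate, smaller changes passed on the same arrays. There 1 of the 5 passed (YUC2 at -0.54, adjusted p = 0.0134 in limma), as did 1.24% of all probe sets.

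YUC2 had log2 values of 6.56 and 6.13 on the GR24 arrays, against 7.07 and 6.71 on the mock arrays of replicates 1 and 2. Both GR24 values lay below both mock values, and within each replicate number the GR24 array was the lower. The difference was -0.51 in replicate 1 and -0.58 in replicate 2, a level of 0.702 and 0.669 times mock. The means were 6.35 ± 0.30 after GR24 and 6.89 ± 0.25 after mock (SD, n = 2 each), a spread within groups that mostly follows the replicate number. The fitted log2 change was -0.54 ± 0.10 (moderated SE), with a 95% interval of -0.78 to -0.31, or 0.584 to 0.804 times the mock level. Its adjusted p was 0.102 in that limma fit, short of the threshold, at rank 111 of all probe sets by p. With limma's default estimate of the shared variance the adjusted p was 0.0134, and YUC2 then passed, as did 1.24% of all probe sets. Without the replicate block its unadjusted p was 0.0488, where 1.5% of probe sets had one under 0.05, and its adjusted p was 1, with 0% of probe sets called. Only 0.44% of probe sets had a change as far below 0 as YUC2.

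YUC6, which raises auxin strongly when overexpressed, had log2 values of 5.56 and 5.73 on the GR24 arrays, against 5.55 and 5.54 on the mock arrays. The GR24 values lay above the mock values, but in replicate 1 only just, by a log2 difference of 0.0083. In replicate 2 the difference was 0.19. The fitted change was 0.10 ± 0.11, with a 95% interval of -0.14 to 0.34 that lies wholly above the interval of YUC2 (adjusted p = 0.912 in limma). No test of the difference between these genes was made.

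**Figure D1:**
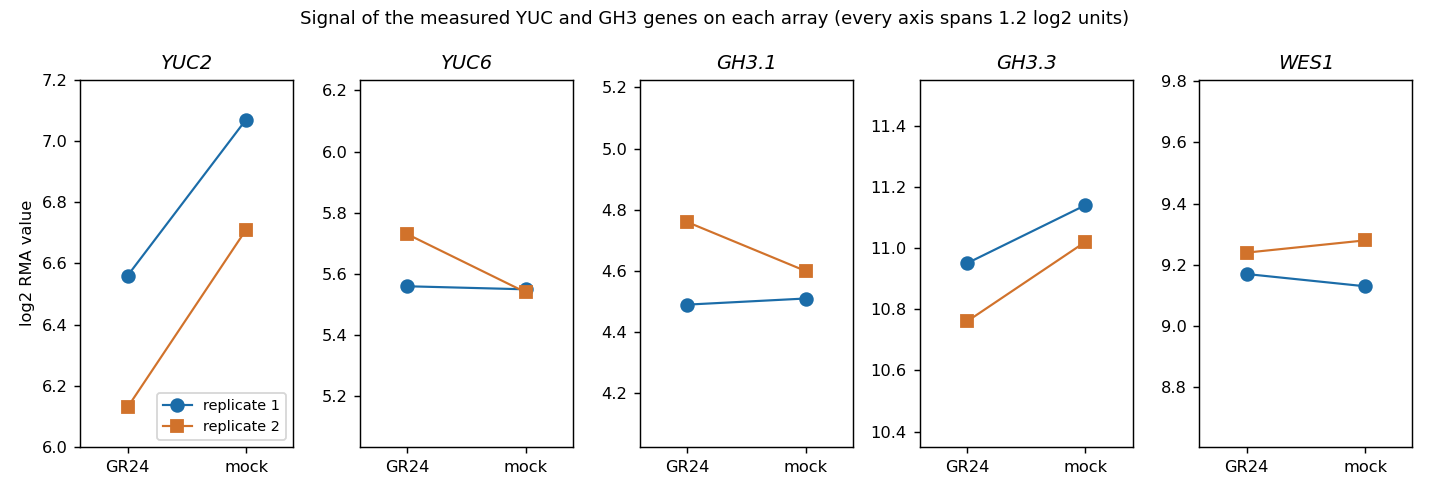
Log2 RMA values of the 5 measured genes on each array, with GR24 left of mock; lines join arrays of the same replicate number, and every vertical axis spans the same log2 range. YUC2 lay below mock in both pairs by similar amounts (-0.51 and -0.58), GH3.3 did so by less (-0.19 and -0.26), and the lines of the other genes are nearly level in replicate 1.

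Of the GH3 genes, GH3.3 is an early auxin-induced gene whose product conjugates indole-3-acetic acid to amino acids. It had log2 values of 10.95 and 10.76 on the GR24 arrays, against 11.14 and 11.02 on the mock arrays. Both GR24 values lay below both mock values, with differences of -0.19 in replicate 1 and -0.26 in replicate 2. The fitted change was -0.22 ± 0.10, or 0.856 times the mock level, with a 95% interval of -0.45 to 0.0052 that includes no change (adjusted p = 0.682 in limma). A change as far below 0 was found for 5.06% of all probe sets.

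GH3.1, another auxin-induced conjugating enzyme gene, had log2 values of 4.49 and 4.76 on the GR24 arrays, against 4.51 and 4.60 on the mock arrays. The groups overlapped, and the differences had opposite signs, -0.018 in replicate 1 and 0.17 in replicate 2. Its signal was dim, near the lower quartile of the arrays (4.69 to 4.74). The fitted change was 0.073, with a 95% interval of -0.17 to 0.31.

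WES1 encodes a GH3 enzyme known to act on auxin and on salicylic acid. Its log2 values were 9.17 and 9.24 on the GR24 arrays, against 9.13 and 9.28 on the mock arrays. The GR24 values lay between the mock values, so the groups overlapped fully. The fitted change was 0.0041 ± 0.10, with a 95% interval of 0.855 to 1.18 times the mock level. The width of this interval rests mostly on the variance shared by all probe sets. Its sign turned with 2 other scalings of the arrays.

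Across the 5 genes, 2 had GR24 values wholly below mock (YUC2 and GH3.3), as had 10.2% of all probe sets, and 1 wholly above (YUC6), as had 12.9%. Differences below 0 in both replicate numbers were found for the same 2 genes, against 23.3% of all probe sets, differences above 0 in both for 1 (YUC6), against 28.7%, and opposite signs for 2 (GH3.1 and WES1), against 47.8%. The median change of the 5 was 0.0041, beside a median of 0.013 over all probe sets. Thus the signs were mixed, but 0 of the 5 passed the test, so neither a shared nor a differing direction was shown. The widest differences below 0 were those of 1 synthesis gene and 1 conjugation gene.

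**Figure D2:**
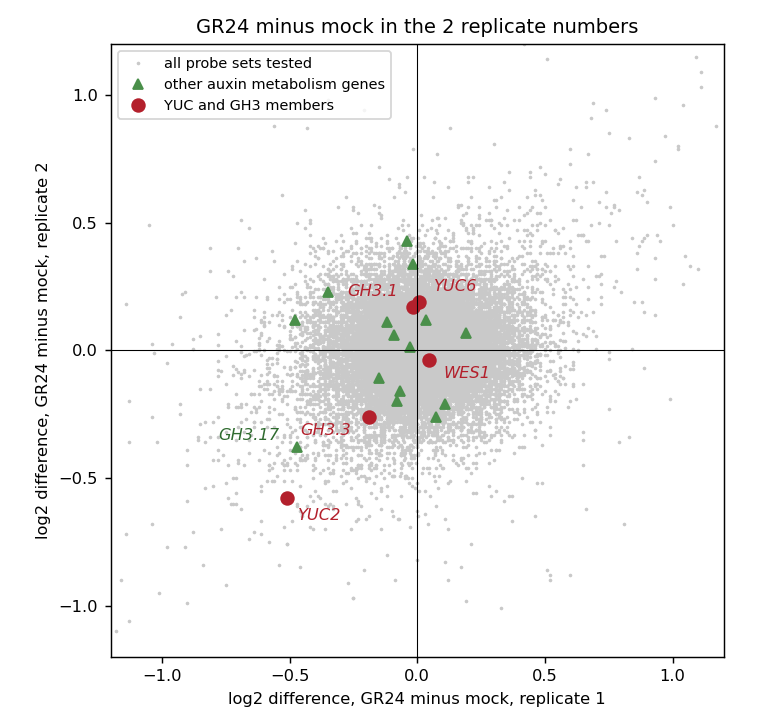
Log2 difference GR24 minus mock in replicate 1 (horizontal) against replicate 2 (vertical). Grey points are all probe sets tested, of which 40 lie outside the axes, and red circles the 5 measured genes. Green triangles are 16 other measured genes, from the remaining YUC and GH3 families, tryptophan synthesis, and auxin oxidation and glucosylation. YUC2 lies at the lower left edge of the cloud with GH3.17 near it, while YUC6, GH3.1 and WES1 lie inside the cloud.

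The replicate number made a difference of similar size to that of GR24 for YUC2. With treatment held constant, YUC2 was lower in replicate 2 than in replicate 1 (log2 difference -0.40 ± 0.10, moderated SE, adjusted p = 0.0311 in limma). The step was -0.43 between the GR24 arrays and -0.36 between the mock arrays, so both treatments carried it. YUC2 was the 1 gene of 5 that passed this contrast, against 16.7% of all probe sets. The other differences were 0.081 for YUC6, 0.18 for GH3.1, -0.15 for GH3.3 and 0.11 for WES1, with adjusted p from 0.282 to 0.66 in limma. The seedlings of an experiment cannot be told apart from array handling that followed the same numbering.

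**Figure D3:**
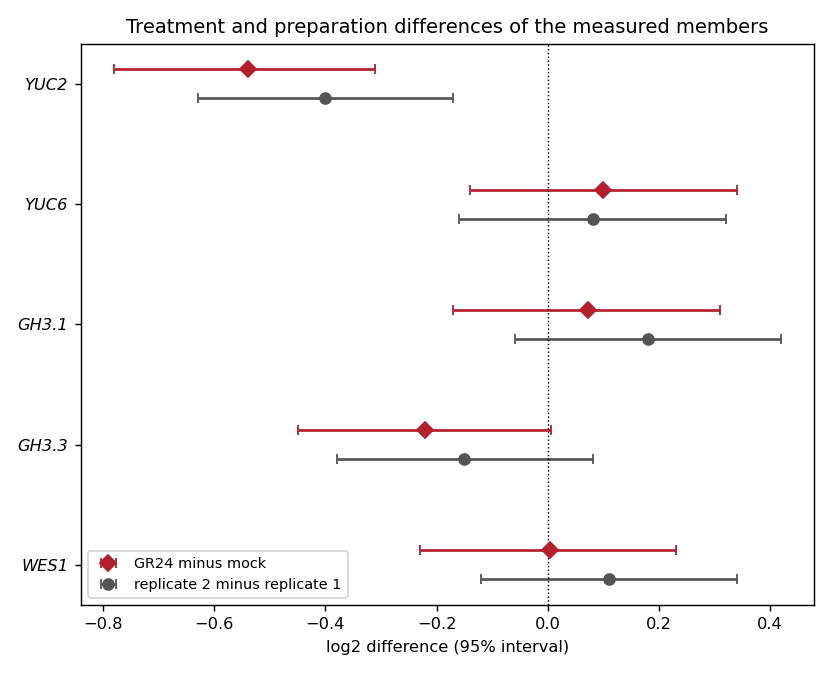
Fitted log2 differences of the 5 measured genes with 95% intervals, for GR24 minus mock (red diamonds) and for replicate 2 minus replicate 1 (grey circles). Both intervals of YUC2 lie below 0 (-0.78 to -0.31 and -0.63 to -0.17), and those of the other 4 genes include 0.

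The remaining YUC and GH3 genes were looked up in the same way. Of 20 further loci, 10 were measured and 0 passed the GR24 test in limma with the likelihood or the default variance estimate, against 0.303% and 1.24% of all probe sets. At an unadjusted p under 0.05, 1 of the 10 passed (GH3.17), against 7.47% of all probe sets, so these counts are near the background. YUC4, known from young leaves and flowers, had log2 values of 3.9 and 4.0 after GR24, against 4.02 and 3.89 after mock. YUC11, known from seeds, had 3.69 and 3.98 after GR24, against 3.71 and 3.63 after mock. Both lay under the lower quartile of every array, with overlapping groups and fitted changes of -0.0031 and 0.16.

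GH3.17 had the widest difference of the measured GH3 genes. It encodes an enzyme that joins indole-3-acetic acid to glutamate. Its log2 values were 8.11 and 8.26 on the GR24 arrays, against 8.58 and 8.64 on the mock arrays. Both GR24 values lay below both mock values, with differences of -0.47 in replicate 1 and -0.38 in replicate 2. The fitted change was -0.43 ± 0.10, with a 95% interval of -0.66 to -0.19, or 0.634 to 0.874 times the mock level. It did not pass (adjusted p = 0.202 in limma, and 0.0689 with the default variance estimate). Unlike YUC2 it had only a small step between replicate numbers, 0.10 (adjusted p = 0.54 in limma).

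The other 7 measured GH3 loci had fitted log2 changes between -0.18 and 0.099, with signals near or under the lower quartile of the arrays. GH3.9 was at 0.099, AT1G23160 at 0.076, AT1G48660 at -0.015 and AT5G51470 at -0.052. AT1G48670 was at -0.091, AT5G13350 at -0.11 and AT5G13380 at -0.18. For AT5G13380 the differences were -0.48 in replicate 1 and 0.12 in replicate 2, so the value rested on the first pair. A probe set shared by AT5G13360 and AT5G13370 was left out, since it cannot tell these loci apart. Over the 8 measured loci of this list the median was -0.072, beside 0.013 over all probe sets.

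**Figure D4:**
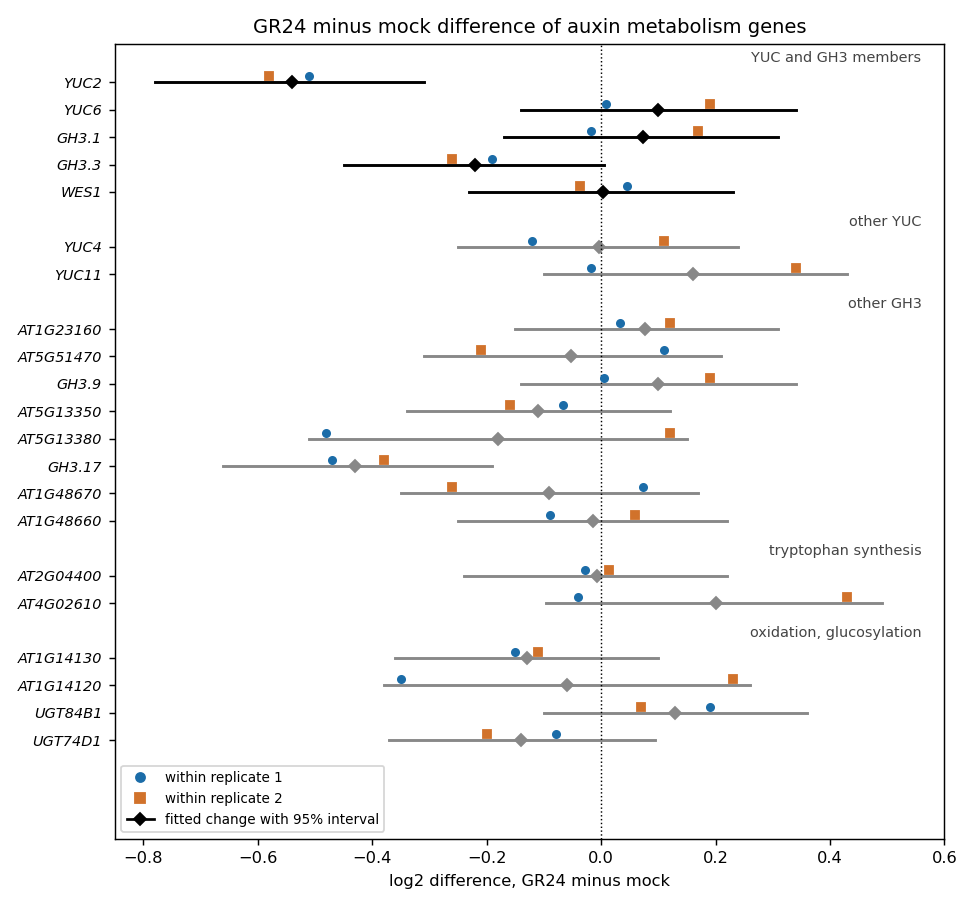
Fitted log2 change, GR24 minus mock, with its 95% interval (diamonds and bars) and the differences within replicate 1 (blue circles) and replicate 2 (orange squares). The 5 measured members are black. Grey marks 16 other genes, from the remaining YUC and GH3 families, tryptophan synthesis, and auxin oxidation and glucosylation. The intervals of YUC2 and GH3.17 lie wholly below 0, and all others include 0.

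Further steps of auxin metabolism were covered thinly. Of 12 tryptophan synthesis loci, 2 were measured and 0 passed in limma, at an adjusted p under 0.05 (0.303% of all probe sets) or an unadjusted one (7.47%), which is near the background. AT2G04400 had a fitted log2 change of -0.0068 and AT4G02610 one of 0.20, the latter with differences of -0.04 in replicate 1 and 0.43 in replicate 2. AT4G02610 was lower in replicate 2 by a log2 difference of -0.64 (adjusted p = 0.0137 in limma). Of 7 loci for auxin oxidation, glucosylation and methylation, 4 were measured and 0 passed by the same measures, against the same 0.303% and 7.47%. The highest was UGT84B1, an auxin glucosyltransferase gene, at 0.13, and the lowest UGT74D1, another glucosyltransferase gene, at -0.14. UGT74D1 was higher in replicate 2 by a log2 difference of 0.42 (adjusted p = 0.026 in limma), a wider step than its GR24 change. AT1G14130 and AT1G14120 were at -0.13 and -0.059. The aminotransferases, the aldoxime and side routes, the conjugate hydrolases, transport, the receptors and the factors known to act on YUC genes had 0 measured loci and are not analysed here.

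By the distance between centred log2 values over the 4 arrays, the gene nearest to YUC2 among 13483 probe sets was AT2G29300 (0.098), followed by AT2G29320 (0.107) and AT2G29290 (0.138). AT2G29300 had log2 values of 6.52 and 6.09 on the GR24 arrays, against 7.04 and 6.56 on the mock arrays. The 3 genes were picked for this likeness, so like YUC2 they were lower after GR24 and lower in replicate 2. Their changes of -0.49, -0.49 and -0.51 did not pass (adjusted p from 0.119 to 0.135 in limma). With limma's default variance estimate they passed (adjusted p from 0.0211 to 0.0297), as did YUC2 and 1.24% of all probe sets. These 3 loci lie within 4 consecutive gene places on chromosome 2 in the reference gene annotation. Nearest to GH3.3 were AT5G66960 (0.028), AT5G41850 (0.0297) and AT2G04230 (0.0306). With 4 arrays many profiles lie close to any given one, so these distances are a description only.

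The arrays had medians between 7.03 and 7.06. Of 18 marker loci, 3 were measured, 1 of 5 for green tissue, 2 of 5 for root and 0 for flowers and seeds. RCA, a photosynthesis gene of green tissue, had log2 values of 13.46 and 13.56 after GR24, against 13.43 and 13.55 after mock. PYK10, an abundant root gene, had 13.10 and 13.22 after GR24, against 13.15 and 13.26 after mock. Their GR24 minus mock changes were 0.023 and -0.043 (adjusted p = 0.992 and 0.972 in limma). On every array both genes lay far above the upper quartile, which was at most 8.75. The presence of RNA from green and from root tissue rests on the signals of RCA and PYK10 alone. EXPA7, a root hair gene, had a GR24 minus mock change of -0.12 (adjusted p = 0.881 in limma). It was higher in replicate 2 by 0.67 (adjusted p = 0.00535 in limma), a contrast that 16.7% of all probe sets passed. RCA and PYK10 did not pass that contrast, with differences of 0.11 each (adjusted p = 0.516 and 0.494 in limma). YUC2 was lower in the same contrast, and a link between EXPA7 and the YUC2 difference was not tested. The mutated MAX3 gene itself is not analysed here. In whole seedlings, fewer cells that transcribe a gene and less RNA per cell cannot be told apart.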

How the data were processed

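The deposited table holds log2 values made with RMA by the authors, per the submitters' processing notes (version not given in the sources used here), for 22810 probe sets on 4 arrays. Here 64 control probe sets were left out and 22746 tested without a filter. Probe sets were named through the platform annotation (13513 with 1 gene), with symbols from the reference gene table. Of 86 loci in the pathway lists besides the members, 16 had such a probe set. Tests used R 4.3.3 and limma 3.58.1, two-sided, with the replicate number as a block, because the series description gives 2 independent experiments and same-numbered arrays were taken to share one. The labels do not state this link. Deviations of same-numbered arrays correlated at 0.712. The shared variance was fitted by maximum likelihood in place of limma's default estimate (7.62 prior and 1 residual degrees of freedom). SEs therefore rest mostly on all probe sets. P-values were Benjamini-Hochberg adjusted over all probe sets. After the main fit, the same fit was run on simulated data that took its shared variance and replicate differences as settings. Such data cannot decide between the variance estimates or on the use of the block. The number of arrays limits the precision, and p-values also depend on the variance estimate and the block. The members and lists were chosen with earlier results of these data known. All measured members and other YUC and GH3 loci were named, the highest and lowest of each other list, and the 3 genes nearest to each of the 2 members with the widest range. Alternatives were other variance estimates, scalings, an offset, a filter, thresholds and arrays left out.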

Additional observations from a re-analysis of the deposited data

How the results depend on the processing

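YUC2 stayed between -0.56 and -0.47 and GH3.3 between -0.24 and -0.22 under 9 alternatives with all arrays kept, with adjusted p in limma from 0.0134 to 1 and from 0.533 to 1. YUC2 passed with the default variance estimate and with trend and robust moderation (adjusted p = 0.0208 in limma), which made the count of members called 1 in each. Both settings left its change at -0.54 and altered only the variance estimate. The default estimate had 18.3 prior degrees of freedom, against 7.62 in the main fit. The count of all probe sets called was 281 and 261 in these settings, 110 at an adjusted p under 0.1, 24 with 16 added to the linear values and 0 without the replicate block, against 69. Without the replicate block, 1.5% of probe sets had an unadjusted p under 0.05. Fits with 1 array left out also had no block, and dropping the block alone gave 0 calls. They therefore cannot show how the calls depend on an array. The median of the members was -0.012 with repeated quantile normalization, -0.011 with arrays centred on the median and -0.11 with the dimmest 25% of probe sets left out, where GH3.1 was no longer tested. With replicates or single arrays left out it ranged from -0.073 to 0.081. WES1 was -0.012 and -0.011 with those 2 scalings, and YUC4 was 0.00055 with repeated quantile normalization. Averaging all probe sets of a gene moved no member, since each had 1. Every fit with a single array left out removed pairing and so mixed the replicate step into the change. Without GR24 replicate 2, YUC2 was -0.33 and GH3.3 was -0.13. Without GR24 replicate 1, YUC2 was -0.76. Of the genes that did not pass, 13 changed sign when single arrays or a whole replicate were left out: GH3.1 ranged from -0.063 to 0.21, WES1 from -0.073 to 0.081, YUC4 from -0.12 to 0.11, YUC11 from -0.017 to 0.34, AT2G04400 from -0.088 to 0.074, AT4G02610 from -0.24 to 0.63, AT1G23160 from -0.04 to 0.19, AT5G51470 from -0.21 to 0.11, AT5G13380 from -0.48 to 0.12, AT1G48670 from -0.26 to 0.073, AT1G48660 from -0.089 to 0.059, AT1G14120 from -0.38 to 0.26 and UGT74D1 from -0.38 to 0.10. Within the replicate numbers 1 and 2, UGT74D1 (-0.078 and -0.20) and AT1G23160 (0.033 and 0.12) kept their sign. These genes changed sign only in fits without the block, so their ranges do not show dependence on an array. No detection calls were used, so dim probe sets have no stated background.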
